A study of Mus musculus with 6 samples.

Results

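The genes described here are those of the G2 phase and of mitosis: the cyclins and kinases that start cell division, the spindle, its checkpoint, the centromere, and the proteins that fold and part the chromosomes. A list of 41 genes was taken, and a gene was followed where a probe carried its current symbol or a synonym of it, by its brightest probe over the 6 arrays. This gave 40 genes out of the 20289 symbols measured. Ccnb1, the gene of cyclin B1, had no probe under its name here and was not analysed.

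RNA came from mouse embryonic fibroblasts (MEFs), primary connective tissue cells grown out of day 13.5 embryos of the C57BL6 strain. In 3 samples the cells stably expressed a short hairpin RNA (shRNA) against GFP, a jellyfish protein gene that mouse cells lack, and these served as the control. In the other 3 samples they expressed an shRNA against Ube2o, which encodes a ubiquitin-conjugating enzyme with ligase activity; the label of 1 field calls this an siRNA, and the titles were followed. Each sample was hybridised to a single-colour Illumina BeadChip, and the study asks which genes respond to the loss of UBE2O. No second hairpin against Ube2o was among the samples, so an effect of the hairpin sequence and one of Ube2o cannot be told apart.

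In a dividing cell, cyclin A2 and the B cyclins switch on the kinase CDK1, CDC25 phosphatases remove its inhibitory phosphates, and the mitotic kinases build the spindle. The spindle checkpoint holds the ubiquitin ligase APC/C and its activator CDC20 in check until every chromosome is attached, after which securin and cyclin B are destroyed and separase cuts the rings that hold sister chromatids together. Most of these genes are transcribed late in the cell cycle. Their level in a culture is therefore commonly used as a readout of how many cells divide, and in bulk RNA fewer dividing cells and less RNA per dividing cell cannot be told apart.

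Values are log2 intensities after background correction and quantile normalization between arrays, and a change is Ube2o shRNA minus GFP shRNA, with 3 arrays per group. Ube2o itself was 2.74-fold lower with its shRNA (log2 change -1.45, SE 0.12, limma adjusted p = 3.15e-07). All 12 fibroblast markers lay above background on every array, while of 7 endothelial, 6 epithelial and 4 measured erythroid markers 0 did so, and of 11 macrophage and leukocyte markers 4 did. At a limma adjusted p under 0.05, 3 of those 11 markers fell, Cd74, Cd14 and Aif1. Of the 12 fibroblast markers 1 fell, the growth factor receptor gene Pdgfra, where 3.95% of all genes fell. With no background correction 2 fibroblast markers rose and 2 fell, where 12.4% of all genes passed. The summed deposited signal of the macrophage and leukocyte markers was 3161 to 3476 on the control arrays and 2168 to 2551 with Ube2o shRNA. This signal is not scaled between arrays, and 6 of the 11 markers lay above background on 0 arrays. The same sum for the fibroblast markers was 84457 to 95276 and 76938 to 95726. The part of the macrophage and leukocyte markers in the values below was not tested. Independent MEFs are said to have been used per hairpin, at a level not stated, with neither embryos nor cultures named. The p-values therefore measure how far these arrays differ, in part perhaps for technical reasons, and 3 arrays per group limit the precision.

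Many genes of this class carry a cell cycle homology region (CHR) in the promoter, a short element bound by the MuvB complexes that hold them silent in resting cells and switch them on in G2, often next to CCAAT boxes bound by NF-Y. The 250 bases before the transcription start, from RefSeq on GRCm38.p6, were searched on both strands for the CHR (TTTGAA or TTCGAA) and for CCAAT. Of the 40 genes 32 had a promoter entry, and 15 of these held a CHR match, against 17.1% of all 32851 promoter entries (a gene with several starts has several entries, and a match in any of them was counted). A CCAAT match stood in 26 of the 32 genes, against 33.8% of all entries, and 14 genes held both, against 6.02%. The 5 genes with the smallest p in the comparison below among those with a CHR match are shown, each 5′ to 3′ with the matches in capitals.
Kif2c (chr4:117178773-117179022, - strand): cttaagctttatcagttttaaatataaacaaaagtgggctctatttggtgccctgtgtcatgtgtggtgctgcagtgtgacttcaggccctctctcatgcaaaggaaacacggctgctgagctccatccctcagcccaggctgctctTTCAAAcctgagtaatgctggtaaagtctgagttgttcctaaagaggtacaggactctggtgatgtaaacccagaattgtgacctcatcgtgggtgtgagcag
Kif11 (chr19:37376132-37376381, + strand): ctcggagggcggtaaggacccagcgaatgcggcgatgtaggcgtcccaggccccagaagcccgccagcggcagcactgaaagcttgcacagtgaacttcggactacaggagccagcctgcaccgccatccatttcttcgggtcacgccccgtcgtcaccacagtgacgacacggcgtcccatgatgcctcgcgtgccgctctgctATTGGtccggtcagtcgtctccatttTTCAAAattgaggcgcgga
Cdc20 (chr4:118437344-118437593, - strand): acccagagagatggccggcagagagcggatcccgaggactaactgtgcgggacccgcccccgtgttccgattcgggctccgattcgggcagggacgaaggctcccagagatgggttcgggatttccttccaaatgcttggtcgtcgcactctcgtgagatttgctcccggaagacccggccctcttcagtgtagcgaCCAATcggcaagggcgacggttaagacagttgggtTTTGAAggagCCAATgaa
Prc1 (chr7:80294226-80294475, + strand): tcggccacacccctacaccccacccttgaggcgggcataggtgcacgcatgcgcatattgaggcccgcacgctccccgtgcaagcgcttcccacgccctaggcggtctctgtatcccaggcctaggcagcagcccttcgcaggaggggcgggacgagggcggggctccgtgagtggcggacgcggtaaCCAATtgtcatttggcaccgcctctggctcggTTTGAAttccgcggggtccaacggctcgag
Ect2 (chr3:27153879-27154128, - strand): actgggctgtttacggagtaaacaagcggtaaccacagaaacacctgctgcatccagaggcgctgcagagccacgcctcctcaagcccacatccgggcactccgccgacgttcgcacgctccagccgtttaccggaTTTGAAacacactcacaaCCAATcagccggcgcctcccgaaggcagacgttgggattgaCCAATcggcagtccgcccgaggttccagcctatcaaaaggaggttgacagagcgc
In Kif11 and Cdc20 the CHR match began 19 and 18 bases before the start, with a CCAAT match 45 and 53 bases before it. In Prc1 they lay 30 and 62 bases before the start, and in Ect2 the CHR lay 114 bases before it with CCAAT matches at 96 and 55. The windows of Kif2c and Ect2 lie wholly inside the annotated span of the gene, before an inner start, and that of Kif2c holds no CCAAT. The last 31 bases of the Prc1 window, which hold its CHR match, also lie inside the annotated span. Another promoter entry of Prc1 held no CHR match. The median log2 change was 0.14 over the 15 genes with a CHR match and 0.049 over the 17 without. The ranges overlapped, from -0.015 to 0.35 with a match and from -0.39 to 0.37 without, and the difference was not tested. A match is a description of these letters and not a bound site.

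No G2/M gene passed the threshold. Of the 40 genes 0 rose and 0 fell at an adjusted p of 0.05 in limma, adjusted over all 45281 probes, where 6.86% of all genes passed, 2.91% higher and 3.95% lower, and 4.94% of all probes. At an unadjusted p under 0.05, 4 genes were higher (Kif2c, Cenpf, Kif11 and Cdc20) and 1 was lower (Pttg1), against 9.69% of all genes higher, 10.2% lower and 19.8% in both directions together. The changes were small and mostly of one sign: 33 of the 40 were above 0, against 50.5% of all genes, with a median log2 change of 0.13 and a range from -0.39 to 0.37, where the median of all genes was 0.0027. With median scaling in place of quantile normalization 25 of the 40 were above 0, against 45.4% of all genes, and the median was 0.057. The 3 Ube2o shRNA arrays lay wholly above the 3 controls for 12 of the 40 genes, against 12.7% of all genes, and wholly below for 3, against 12.9%. With median scaling they lay wholly above for 4, against 7.97%.

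The level of each gene decides how much can be said of it. On all 6 arrays 31 of the 40 genes lay above the background inferred from the dim probes. For 6 genes (Ccnb2, Bub1, Kif20a, Cenpe, Hmmr and Nek2) the brightest probe lay above background on 0 arrays, and Smc2, Ect2 and Racgap1 lay above it on 1, 5 and 5 arrays. Over the 31 brighter genes 27 changes were above 0 and the median was 0.14, against 51.8% and 0.010 over the 9330 genes above background on all arrays, of which 13% passed the threshold. The 3 Ube2o shRNA arrays lay wholly above the 3 controls for 10 of the 31, against 21.3% of those genes, and wholly below for 2, against 20.1%.

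**Figure D1:**
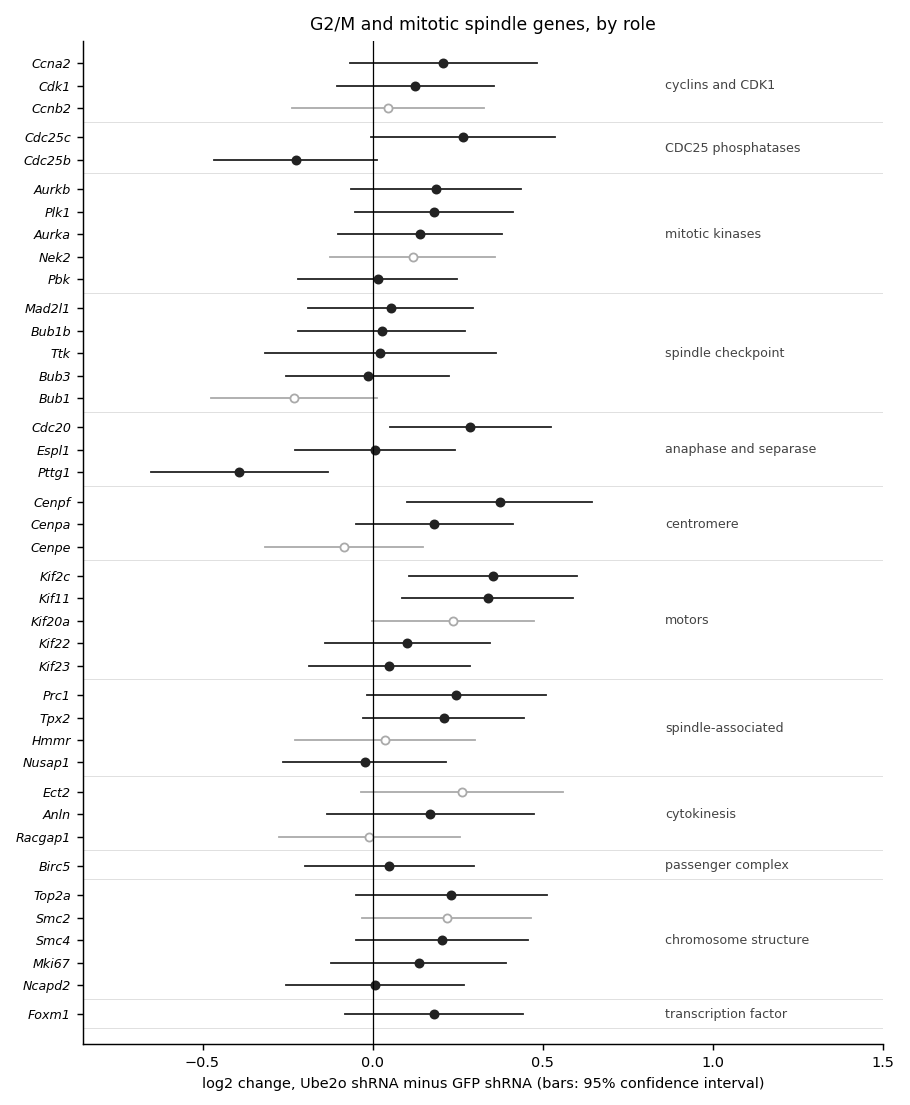
Log2 change of the 40 G2/M genes (Ube2o shRNA minus GFP shRNA, 3 arrays per group, points) with its 95% confidence interval (bars), grouped by role; filled points mark genes above background on all 6 arrays. Most points lie between 0 and 0.37, the intervals of Kif2c, Cenpf, Kif11 and Cdc20 lie above 0, and that of Pttg1 lies below it.

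Among the cyclins and their kinase, Cdk1, the kinase that drives entry into mitosis, read 12.10, 12.15 and 12.07 with GFP shRNA and 12.23, 12.18 and 12.29 with Ube2o shRNA. The groups did not overlap, and the log2 change was 0.13 (95% interval -0.11 to 0.36, limma adjusted p = 0.649). Another Cdk1 probe above background on all 6 arrays gave -0.033, and a dimmer one, above background on 2 arrays, gave -0.19, both with overlap. The cyclin A2 gene Ccna2 stood at 8.11, 8.07 and 8.04 on the control arrays and 7.99, 8.48 and 8.37 on the others, a change of 0.21. Its first Ube2o shRNA array was the lowest of the 6 and replicates 2 and 3 were the highest. Ccnb2, the gene of cyclin B2, was not above background.

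The CDC25 phosphatase genes lay on opposite sides. Cdc25c, whose product activates CDK1 at the start of mitosis, read 8.12, 8.15 and 8.11 with GFP shRNA and 8.67, 8.18 and 8.34 with Ube2o shRNA. All 3 Ube2o shRNA values exceeded the controls, by a wide margin on replicate 1 and a narrow one on replicate 2, for a log2 change of 0.27 (SE 0.13, limma adjusted p = 0.320), which was 0.13 without Ube2o shRNA replicate 1. Cdc25b, the phosphatase gene active earlier in G2, read 7.96, 8.01 and 8.09 on the control arrays and 7.75, 7.71 and 7.91 on the others. Here the controls were the higher group without overlap, and the log2 change was -0.23 (SE 0.11, limma adjusted p = 0.339). The second bright probe of Cdc25c gave 0.34, also without overlap. A dimmer Cdc25c probe, above background on 2 arrays, gave -0.16 with overlap. The other probe of Cdc25b, above background on 3 arrays, gave -0.064 with overlap. With the probes of each gene averaged, the changes were 0.15 for Cdc25c and -0.14 for Cdc25b.

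The mitotic kinase genes differed little between groups. Plk1, the polo-like kinase of centrosomes and kinetochores, read 10.72, 10.64 and 10.55 with GFP shRNA and 10.84, 10.81 and 10.81 with Ube2o shRNA, so that the groups did not overlap, with a log2 change of 0.18 (95% interval -0.051 to 0.41). The Aurora kinase genes Aurkb, of the chromosomal passenger complex, and Aurka, of the spindle poles, had changes of 0.19 and 0.14 with overlapping groups. Pbk, a kinase gene of mitotic cells, had a change of 0.015.

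By their brightest probes most spindle checkpoint genes lay near 0. The log2 changes of Mad2l1, Bub1b, Ttk and Bub3, whose products sense unattached kinetochores and restrain CDC20, were 0.053, 0.027, 0.023 and -0.015, and the 95% interval of Mad2l1 ran from -0.19 to 0.30. Further probes above background on all arrays gave 0.17 for Mad2l1 without overlap, and -0.15 for Bub1b and 0.051 for Bub3 with overlap. Ttk, the kinase at the head of this checkpoint, spread widely within each group, over 0.61 on the control arrays and 0.49 on the Ube2o shRNA arrays. Bub1, the checkpoint kinase gene below background on every array, read 6.33, 6.50 and 6.45 against 6.23, 6.06 and 6.31, and no fold is given for it.

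Of the genes that act at anaphase, Cdc20 was higher and Pttg1 lower in every array of the Ube2o shRNA group, neither past the threshold. Cdc20, the activator of the APC/C and the target of the checkpoint, read 11.54, 11.50 and 11.66 with GFP shRNA and 11.92, 11.80 and 11.83 with Ube2o shRNA. The groups were apart by more than the spread within either, 11.56 ± 0.082 (SD, n = 3) against 11.85 ± 0.063 (SD, n = 3). The log2 change was 0.29 (95% interval 0.052 to 0.52, limma adjusted p = 0.181). Its deposited signals, not yet scaled between arrays, were 3019, 3026 and 3630 against 3375, 3973 and 3551, which overlap.

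Pttg1, which encodes securin, the inhibitor of separase that the APC/C destroys, read 7.37, 7.24 and 7.01 with GFP shRNA and 6.72, 6.77 and 6.95 with Ube2o shRNA. The lowest control lay just above the highest Ube2o shRNA array. The log2 change of -0.39 (95% interval -0.65 to -0.13, 1.31-fold lower) had the smallest p of the 40 genes, with a limma adjusted p = 0.0850. Espl1, the gene of separase itself, had a change of 0.0058 (95% interval -0.23 to 0.24).

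The centromere genes held the gene with the highest change of the 40. Cenpf, a large protein of the outer kinetochore and nuclear matrix, read 6.80, 6.91 and 6.99 on the control arrays and 7.26, 7.52 and 7.04 on the Ube2o shRNA arrays. The third Ube2o shRNA array lay just above the controls and the second well above them. The log2 change was 0.37 (95% interval 0.10 to 0.65, limma adjusted p = 0.124), while its dimmer probes gave 0.080 and 0.19. Cenpa, the histone H3 variant that marks the centromere, read 13.11, 13.14 and 13.02 against 13.27, 13.29 and 13.25, apart by a log2 change of 0.18 (limma adjusted p = 0.456).

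All 5 Kif genes, which encode kinesin motors, had changes above 0, and 2 of them were near the head of the list. Cenpe, a kinesin gene grouped here with the centromere, had a change of -0.085 and was below background throughout. Kif2c, which takes apart microtubule ends and corrects wrong attachments at the centromere, read 9.58, 9.84 and 9.72 with GFP shRNA and 10.01, 10.00 and 10.18 with Ube2o shRNA. All Ube2o shRNA arrays exceeded the highest control, and the log2 change was 0.35 (95% interval 0.11 to 0.60, 1.28-fold, limma adjusted p = 0.103). Kif11 (Eg5), the motor that pushes the spindle poles apart, read 8.52, 8.56 and 8.79 against 8.99, 8.84 and 9.05. Replicate 3 of the controls came close to replicate 2 of the Ube2o shRNA arrays without overlap, and the log2 change was 0.34 (95% interval 0.088 to 0.59, limma adjusted p = 0.132). The second probe of Kif11, above background on 4 arrays, gave 0.27, also without overlap. Kif22, which moves chromosome arms, and Kif23, a motor of the midzone, had changes of 0.10 and 0.049, and Kif20a, at 6.07, 6.16 and 6.22 against 6.35, 6.31 and 6.50, was below background throughout.

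**Figure D2:**
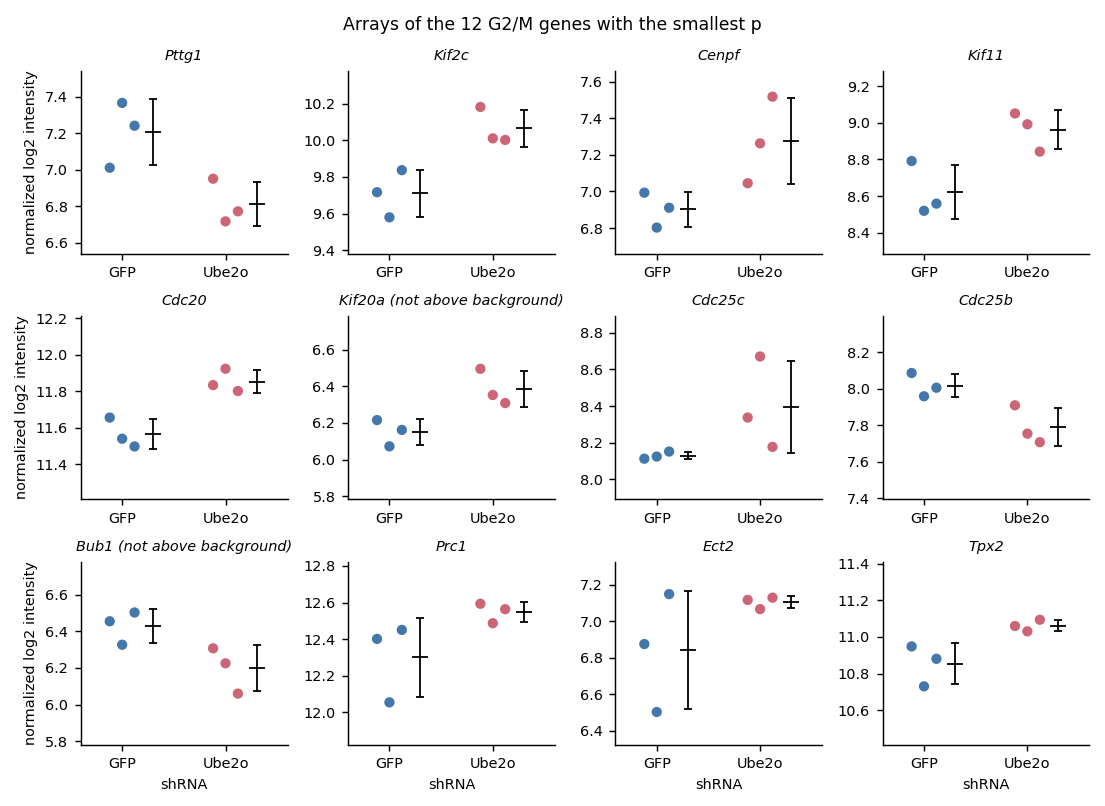
Normalized log2 intensity on each of the 6 arrays (points) for the 12 G2/M genes with the smallest p, with the mean and SD of each group (n = 3) beside the points; every panel spans 1 log2 unit around its own middle. The groups overlap for Ect2 and in no other panel, and Kif20a and Bub1 lie below background.

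Prc1 and Tpx2, both spindle-associated, were higher with Ube2o shRNA without overlap and without passing the threshold. Prc1, which bundles the microtubules of the midzone, read 12.05, 12.45 and 12.40 with GFP shRNA and 12.49, 12.56 and 12.59 with Ube2o shRNA, a log2 change of 0.25 (limma adjusted p = 0.346), which was 0.12 without GFP shRNA replicate 1. Tpx2, the activator of Aurora A on the spindle, read 10.73, 10.88 and 10.95 against 11.03, 11.09 and 11.06, a change of 0.21 (limma adjusted p = 0.387). In both genes replicate 1 of the controls was the lowest array. Nusap1, another microtubule-binding gene, had a change of -0.024 by its brightest probe. Its other probe above background on all arrays gave 0.22 without overlap. A dimmer one, above background on 5 arrays, gave -0.18, also without overlap, and the last lay below background.

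Of the genes of cytokinesis, Ect2, which activates RhoA to close the furrow, read 6.50, 7.15 and 6.87 on the control arrays and 7.07, 7.13 and 7.12 on the others. The groups overlapped, since replicate 2 of the controls was the highest array of all, and the log2 change was 0.26 (SE 0.14, limma adjusted p = 0.386). It was 0.094 without GFP shRNA replicate 1 and 0.41 without replicate 2. Anln, the anillin gene of the contractile ring, stood at 11.40 on replicate 1 of the controls and at 11.90 and 11.99 on the others, against 11.98, 11.78 and 12.03. Its change was 0.17, and Racgap1, the partner of ECT2, had a change of -0.0096.

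Of the genes of chromosome structure, Top2a, Smc2, Smc4 and Mki67 had changes of 0.23, 0.22, 0.20 and 0.14, and the condensin I subunit gene Ncapd2 had 0.0081. SMC2 and SMC4 are the paired ATPases of condensin, the complex that compacts chromosomes, and Ki-67, the product of Mki67, coats mitotic chromosomes and is the usual stain for dividing cells. Mki67 read 10.24, 10.40 and 10.55 with GFP shRNA and 10.48, 10.43 and 10.68 with Ube2o shRNA, with overlap (95% interval -0.12 to 0.39, limma adjusted p = 0.662). The transcription factor gene Foxm1, which drives many of these genes in G2, read 9.44, 9.83 and 9.77 against 9.92, 9.85 and 9.80, a change of 0.18 (limma adjusted p = 0.533). Its second probe, also above background on all arrays, gave 0.24 without overlap (limma adjusted p = 0.318). Birc5 (survivin), of the passenger complex, had a change of 0.049.

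Genes with several probes gave further readings. The 40 genes had 81 probes, 26 genes having more than 1, and of the 41 probes beside the brightest 2 passed the threshold, where 4.94% of all probes did. All 4 probes of Cdc20 were higher in every Ube2o shRNA array than in every control, and 1 of the dimmer ones passed, at 7.84, 7.74 and 7.76 against 8.38, 8.21 and 8.31 (log2 change 0.52, limma adjusted p = 0.00890). That call was kept in the 6 fits that each left out 1 array, and was lost with a background offset of 16 (adjusted p = 0.0817). The probes of Top2a, the topoisomerase that untangles sister chromatids, went opposite ways. Its brightest probe read 9.22, 9.55 and 9.73 against 9.71, 9.64 and 9.86, while the next probe fell, from 9.49, 9.50 and 9.53 to 8.97, 9.15 and 9.13 (log2 change -0.42, limma adjusted p = 0.0332). The call of this second probe was lost in each of the 6 fits that left out 1 array (adjusted p from 0.0554 to 0.143). Which transcript each probe reads is not given in the sources used here. Of the 21 further probes above background on all arrays, 15 had the sign of the brightest probe of their gene.

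The 6 arrays differed in these genes within the control group as well as between groups. Over the 31 brighter genes the median deviation from the mean of each gene was -0.14, -0.029 and -0.0011 on control replicates 1, 2 and 3, and 0.071, 0.013 and 0.079 on the Ube2o shRNA replicates. The array of GFP shRNA replicate 1 was the lowest control for 21 of the 31 genes, against 41.1% of the 9330 genes above background. The spread over the control arrays was widest for Ttk, Anln, Top2a, Prc1 and Foxm1, at 0.61, 0.59, 0.51, 0.40 and 0.39, and that array was the lowest control in each of the 5. Without it the median log2 change over the 40 genes was 0.077, 26 of the 40 changes were above 0, and 0 genes passed. With median scaling the median deviation of the same 31 genes on that array was -0.19, where that of all genes above background was -0.052.

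**Figure D3:**
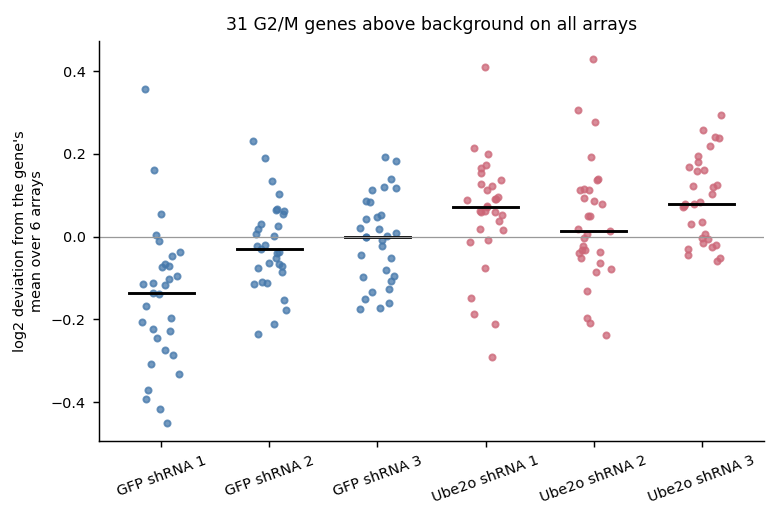
Deviation of each of the 31 G2/M genes above background on all arrays from its own mean over the 6 arrays (points, log2), with the median of each array (lines). The median is -0.14 on GFP shRNA replicate 1 and lies between -0.029 and 0.079 on the other 5 arrays.

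Whether a gene passed depended on the processing. The reported setting called 0 of the 40. With no background correction Cdc20, Kif11 and Kif2c rose (adjusted p = 0.0166, 0.0270 and 0.0116 in limma), where 12.4% of all genes passed, and the deposited log2 values gave the same 3 rises and a fall of Pttg1 (log2 change -0.27, adjusted p = 0.0468), where 12.3% passed. With only the probes above background on all 6 arrays, 5 of the 31 genes passed, the rises of Cdc20, Cenpf, Kif11 and Kif2c and the fall of Pttg1, where 24.5% of all genes did. An intensity trend in the variance called Cdc20 and Kif2c, where 10.4% passed. With the probes above background on at least 3 arrays Kif11, Kif2c and Pttg1 passed, 3 of 33 genes, where 19.9% of all genes did. The mean over all probes of a gene called Cdc20 (log2 change 0.39, adjusted p = 0.0327), where 6.38% passed. The count was 0 with an offset of 16, median scaling, array weights, the replicate block or the chromosome median subtracted, where 1.91%, 6.53%, 7.2%, 6.56% and 6.13% of all genes passed. It was also 0 without GFP shRNA replicate 1, 2 or 3, where 4.53%, 4.98% and 4.91% passed, and without Ube2o shRNA replicate 1, 2 or 3, where 4.7%, 5.16% and 4.74% did. The share of G2/M genes that passed was in no setting above the share of all genes.

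**Figure D4:**
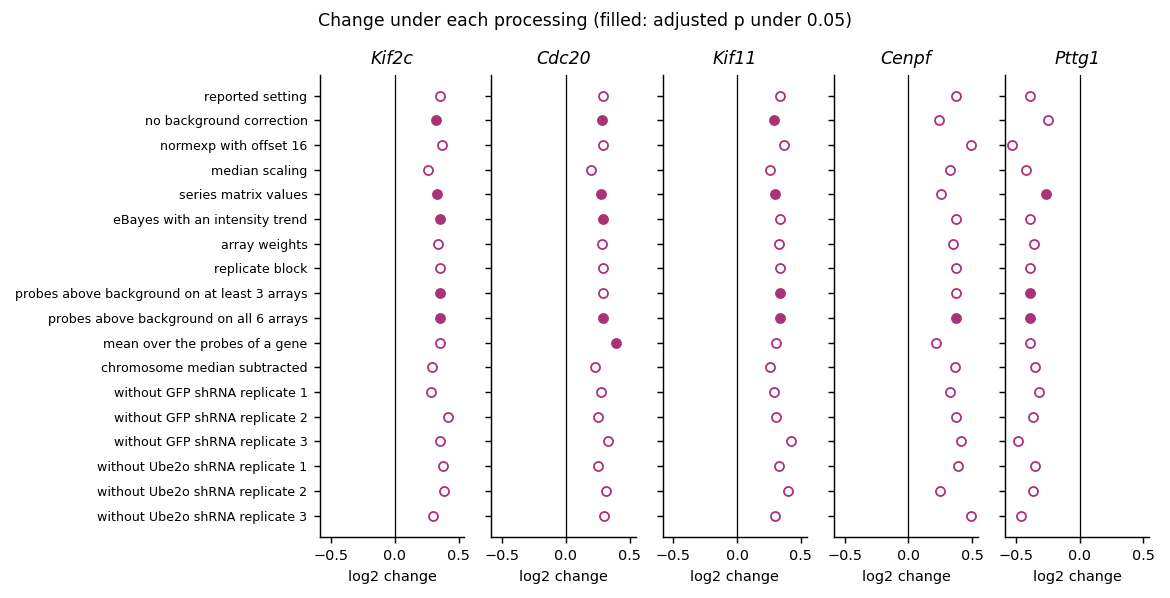
Log2 change (Ube2o shRNA minus GFP shRNA) of the 5 G2/M genes with an unadjusted p under 0.05, under the reported setting and 17 others; filled points have an adjusted p under 0.05 in limma. The sign of each gene is the same in all settings, and the filled points lie in the settings without background correction, with the deposited log2 values (series matrix values), with a filter or a trend, or with probes averaged.

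Other genes of the same machinery were followed in 7 companion lists, of which 150 genes were measured. Of these 127 lay above background on all arrays, and 5 of the 150 rose and 0 fell. Of all genes 6.86% passed, and of those above background on all arrays 13% did. The median log2 change of the 150 was 0.083. The count moved with the processing, to 20 rises and 2 falls with the deposited log2 values, where 12.3% of all genes passed, and to 0 of either with an offset of 16, where 1.91% did. With no background correction 19 rose and 2 fell, where 12.4% of all genes passed. With the probes above background on all 6 arrays 20 of 127 rose and 2 fell, where 24.5% of all genes passed. With median scaling 2 rose and 1 fell, where 6.53% of all genes passed, and the median log2 change was 0.015. In the reported setting, those 5 were 2 subunits of the passenger complex, 2 centromere proteins and 1 condensin subunit. Cdca8 (borealin), a subunit of the passenger complex that Aurora B works in, read 10.26, 10.34 and 10.28 with GFP shRNA and 10.99, 10.89 and 10.93 with Ube2o shRNA. The groups were far apart for their spread, with a log2 change of 0.64 (SE 0.11, 1.56-fold, limma adjusted p = 0.00133), and its second probe passed as well, at 0.60. Incenp, the scaffold of the same complex, rose by 0.46 on the log2 scale (limma adjusted p = 0.0200), from 10.48, 10.36 and 10.46 to 10.86, 10.87 and 10.94. Incenp lies on chromosome 19, where the median change of all genes was 0.085, and with that median subtracted its change was 0.37 and did not pass (adjusted p = 0.0684). The other subunits, Aurkb and Birc5, had the changes of 0.19 and 0.049 given above. That the subunits differ in their change was not tested.

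In the list of kinetochore and checkpoint genes 2 of 37 rose, 33 of the 37 being above background on all arrays. Of all genes 2.91% rose, and of the 9330 genes above background on all arrays 550 rose. With the deposited log2 values 7 rose and 1 fell, where 12.3% of all genes passed. Cenpw, which binds centromeric DNA with a histone fold, read 12.04, 11.61 and 11.71 against 12.37, 12.34 and 12.45, a log2 change of 0.60 (limma adjusted p = 0.00754), while its second probe gave 0.17 and did not pass. Cenpl, of the constitutive centromere network, read 9.32, 9.41 and 9.39 against 9.89, 9.90 and 9.80, a change of 0.49 (limma adjusted p = 0.0120), and its second probe passed at 0.65. In condensin and cohesin, with 16 of 17 genes above background on all arrays, 1 of 17 rose, beside the same 2.91% and 550 of 9330. It was the condensin II gene Ncapg2, at 8.21, 8.18 and 8.12 against 8.51, 8.61 and 8.91 (log2 change 0.50, limma adjusted p = 0.0218). Its other probe above background on all arrays passed at 0.87 (adjusted p = 0.000448), and a dimmer one gave 0.37 and did not pass. Ncapg2 lies on chromosome 12, where the median change was 0.11, and with that median subtracted its change was 0.39 and did not pass (adjusted p = 0.0911).

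In the 4 further companion lists 0 genes passed in the reported setting, where 6.86% of all genes did. The probes above background on all 6 arrays gave further calls, where 24.5% of all genes passed. There 3 of 10 genes of CDK1 control, 1 of 15 of the APC/C and 5 of 27 other spindle and centrosome genes rose. In transcriptional control 1 of 17 fell. The smallest p in the CDK1 control list of 14 genes was that of Bora, a cofactor of Aurora A in the activation of PLK1, with a log2 change of 0.38 (limma adjusted p = 0.0802). In the APC/C list of 18 it was that of Fzr1, the APC/C activator of late mitosis and G1 (0.32, adjusted p = 0.123), and among 31 other spindle and centrosome genes that of Haus8, of the augmin complex that branches microtubules (0.38, adjusted p = 0.0535). In the list of transcriptional control, with 22 genes, it was E2f8, below background on all arrays. Bora, Fzr1 and Haus8 rose with no background correction (limma adjusted p = 0.0136, 0.00628 and 0.00184), with the deposited log2 values, with an intensity trend and with both filters. Bora and Haus8 also rose with probes averaged, and Haus8 with array weights (adjusted p = 0.0446). The rises of Incenp and Ncapg2 were lost when single arrays were left out: that of Incenp without GFP shRNA replicate 2 or 3 or Ube2o shRNA replicate 1 or 3, and that of Ncapg2 without any 1 of the controls or Ube2o shRNA replicate 3. Cenpl was lost without Ube2o shRNA replicate 1 (adjusted p = 0.0510), while Cdca8 and Cenpw passed whichever array was left out. With the offset of 16 none of the 5 passed (adjusted p from 0.0511 to 0.150), and with median scaling Cdca8 and Cenpw did.

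Genes of the preceding phases were set beside these. Of 37 genes of G1/S and DNA replication, 36 of them above background on all arrays, 6 rose and 0 fell. Of all genes 2.91% rose and 3.95% fell, and of those above background on all arrays 13% passed. The median log2 change of the 37 was 0.14, against 0.13 for the 40 G2/M genes. The 3 with the smallest p were Ccne2, the cyclin E2 gene of S phase entry, at 6.75, 7.12 and 7.15 against 7.77, 7.88 and 7.87, Fen1, a nuclease of lagging strand synthesis (log2 change 0.65), and Rrm2, a subunit of ribonucleotide reductase (0.53). Without GFP shRNA replicate 1 the count of rises was 3 and the median 0.11, where 4.53% of all genes passed, and with median scaling they were 2 and 0.055, where 6.53% passed. With no background correction, as with the deposited log2 values, 9 rose and 2 fell, where 12.4% and 12.3% of all genes passed. With either filter 9 of 36 rose and 1 fell, where 19.9% (at least 3 arrays) and 24.5% (all 6 arrays) of all genes passed. With the offset of 16 the count of rises was 1 of 37, where 1.91% of all genes passed. Of 13 G1 cyclins, their kinases and CDK inhibitors 1 rose, the cyclin D3 gene Ccnd3 (log2 change 0.51, limma adjusted p = 0.0104), where 2.91% of all genes rose. It did not pass with the offset of 16 (adjusted p = 0.118), with median scaling (0.0608) or without Ube2o shRNA replicate 1 (0.0650). In this list 1 or 2 genes rose and 2 fell with no background correction, the deposited log2 values, an intensity trend or a filter. In those settings 12.4%, 12.3%, 10.4%, and 19.9% or 24.5% of all genes passed. Whether these lists differ from the G2/M genes was not tested.

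**Figure D5:**
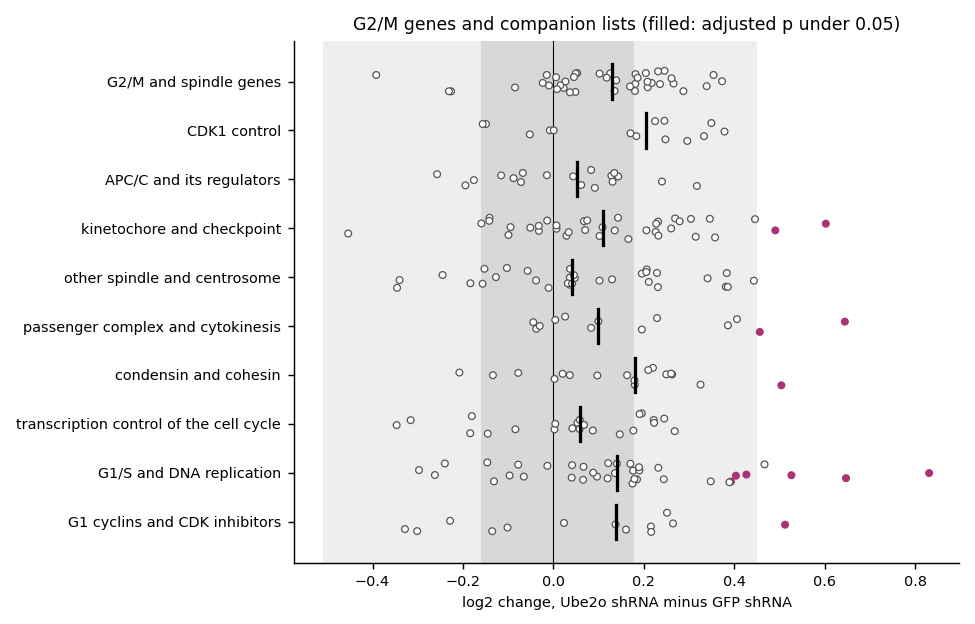
Log2 change of the 40 G2/M genes and of the genes of 9 companion lists (points; filled where the adjusted p is under 0.05 in limma), with the median of each list (black lines); the shaded bands run between the quartiles and between the 5th and 95th percentiles of the 9330 genes above background on all arrays. The G2/M genes lie between -0.39 and 0.37 with 0 filled points, and the filled points of the companion lists lie at 0.39 and above.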

How the data were processed

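RNA prepared with RNeasy columns was labelled as biotinylated cRNA for Illumina arrays, per the labels' protocols. The authors deposited a table of linear probe intensity that is not normalized, with a median of 153 to 174 per array, and a table of log2 values, which were found to be quantile normalized. Not given in the sources used here is how either table was made.

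The deposited intensity was corrected with saddle-point normexp (offset 50), quantile normalized and taken to log2, and all 45281 probes were tested two-sided with lmFit and eBayes of limma (version 3.58.1, R version 4.3.3), adjusted by Benjamini-Hochberg at a threshold of 0.05. No detection p-values were used, so a probe was called above background against the mode of the log2 signal of its array and the spread below that mode, at p under 0.05. Probes were named from the platform annotation with symbols updated through RefSeq GRCm38.p6: 35784 probes had 1 symbol and 9497 had none. Scripts were tested on simulated data.

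Values per array are given for the 12 G2/M genes with the smallest p and those that passed in any setting. Of each companion list the up to 3 genes that passed with the smallest p are named, or the 1 with the smallest p. Other genes given per array were chosen after their values were seen. Members and lists were chosen with earlier results of these data known. Alternatives changed the background correction, scaling, values, variance model, array weights, replicate block, filter, choice of probe, chromosome median and set of arrays.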

Additional observations from a re-analysis of the deposited data

How the results depend on the processing

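The number of probes past the threshold was 2236 in the reported setting, 3966 with no background correction, 3941 with the deposited log2 values, 3505 and 3679 with probes above background on at least 3 or on all 6 arrays, 584 with a normexp offset of 16, and it was 1295 genes with probes averaged. Leaving out 1 array at a time gave 1445 (without GFP shRNA replicate 1) to 1682, with 0 G2/M genes each time and a median log2 change over them of 0.077 to 0.14. The number of G2/M genes past the threshold was 3 with no background correction, 4 with the deposited log2 values, 2 with an intensity trend, 3 of 33 and 5 of 31 with the filters, and 1 with probes averaged. It was 0 in the reported setting, with the offset of 16, median scaling, array weights or the chromosome median subtracted. The filters test fewer probes, and the cause of the other shifts was not tested. With median scaling the median change was 0.057, and 4 G2/M genes (7.97% of all genes) in place of 12 (12.7%) were higher without overlap. With the replicate number as a block 2139 probes and 0 G2/M genes passed. Same-numbered arrays did not deviate together (correlations of 0.026, -0.12 and 0.079), so the numbers were not taken to pair the samples. The 12 G2/M genes with the smallest p kept their sign in every setting that tested them. Of all 40, 8 changed sign with median scaling, 9 with probes averaged (Top2a and Cdk1 among them), 2 with the chromosome median subtracted, 1 with array weights and 1 to 7 when an array was left out, 7 of them without GFP shRNA replicate 1. Dim probes limit what can be said of the 9 genes not above background on all arrays.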
